A study of Rattus norvegicus with 12 samples.

Results

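The genes described here encode the chaperonins of the cell, and comprise the 8 subunits of the cytosolic complex CCT (Tcp1, Cct2, Cct3, Cct4, Cct5, Cct6a, Cct7 and Cct8) and the mitochondrial pair Hspd1 and Hspe1. They are 10 of the 14217 genes that the arrays measured with a probe set of a single symbol. The members were taken by symbol, but they were chosen on measured values of these same arrays, since the contrast of group A against group D was known when they were picked. For that contrast, and for the one of group A with the gavage groups, the values and the counts past a threshold are therefore given as a description, with no p-value of a member, and nothing is read from these counts.

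Mesenteric lymph nodes (MLN) were taken from Wistar rat pups at day 21, and total RNA was hybridized to the Affymetrix Rat Genome 230 2.0 array, with 1 array per pup and 3 pups in each of 4 groups. Group A received conjugated linoleic acid (CLA, an isomer mix of the c9,t11 and t10,c12 forms) over 5 weeks, through dams on a 1% CLA diet for 2 weeks of gestation and then through the milk of these dams for 3 weeks of suckling. Group B also had 5 weeks, from dams on that diet in gestation only and by daily oral gavage while suckling, and group C had 3 weeks of gavage alone, its dams eating the standard diet in both periods. Group D, the reference, had no CLA. Gavage is described only for groups B and C. In comparisons of them with group A or group D, the gavage procedure and the CLA intake cannot be told apart. The 3 pups were a random draw from 10 animals per group, and because their litters are not given in the sources used here, p-values measure only the spread between these arrays and the part of a litter was not tested.

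A chaperonin is a barrel of protein in which a newly made or unfolded chain is enclosed and folds at the cost of ATP. CCT, also called TRiC, is built of paired rings in which each of the 8 subunits holds a fixed place, and it is best known for folding actin and tubulin, which few other chaperones can bring to their native state. Hspd1 (HSP60) forms the chamber and Hspe1 (HSP10) the lid of the mitochondrial chaperonin, which folds proteins imported into the matrix. Dividing and migrating lymphocytes depend on actin and tubulin, the main clients of CCT.

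The 2 mitochondrial genes are neighbours that are read in opposite directions from 1 shared stretch of DNA, with 289 bases between the starts of the RefSeq promoter table (rat assembly GRCr8). The RefSeq span of Hspd1 reaches further and shares 6 bases with that of Hspe1, so by that span the stretch lies inside Hspd1. A piece of that stretch is shown because the promoter windows of both genes, each of 300 bases, contain that piece. The differences of the 2 genes in group A were of unlike size. The piece holds a heat shock element, the motif of the heat shock factors, searched as TTCNNGAANNTTC or GAANNTTCNNGAA on both strands. Cct4 is shown beside it as the only CCT subunit with such an element in its window, but there the element lies after the start, inside the transcribed gene, while that of Hspe1 lies before the start. Capitals mark the element. All sequences are RefSeq's and run 5′ to 3′ on the strand of the named gene.
Hspe1, plus strand, chr9:64084254-64084283: gcgctcggTTCTAGAACCTTCCGGAAggcc
Cct4, plus strand, chr14:101193074-101193103: gcgtcgctTTCTGGAAGGTTCgtggaggcg
The element was found in 3 of the 10 windows, those of Hspd1 and Hspe1 counting the same stretch, and in 0.798% of all 33469 windows in the table. A match of letters is a description of the window and not a site of binding.

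For the CCT subunits the 150 bases before the start are shown for Tcp1 and Cct8, the genes with the lowest signal in group A relative to group D on the brighter probe set of each gene, and for Cct7, the subunit with the smallest difference. Capitals mark CCAAT, the box bound by NF-Y, and GGGCGG, the GC box bound by Sp factors, on either strand (ATTGG and CCGCCC where reversed).
Tcp1, minus strand, chr1:50384528-50384677: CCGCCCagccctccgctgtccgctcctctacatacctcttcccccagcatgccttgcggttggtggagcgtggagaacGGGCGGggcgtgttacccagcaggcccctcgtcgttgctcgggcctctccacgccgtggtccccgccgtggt
Cct8, minus strand, chr11:40208329-40208478: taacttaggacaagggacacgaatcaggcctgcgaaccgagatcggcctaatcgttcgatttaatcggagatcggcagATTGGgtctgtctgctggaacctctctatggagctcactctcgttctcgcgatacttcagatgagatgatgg
Cct7, plus strand, chr4:119546580-119546729: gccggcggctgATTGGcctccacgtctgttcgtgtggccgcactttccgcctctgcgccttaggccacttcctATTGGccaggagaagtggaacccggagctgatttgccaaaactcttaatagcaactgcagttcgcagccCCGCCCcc
Over the whole 300-base windows CCAAT was found in 5 of the 10 genes, against 37.5% of all windows, and GGGCGG in 8 of the 10, against 33.1%. The E box CACGTG was in 0 of the 10 and in 6.42% of all windows. Cct7 has 2 CCAAT boxes in its window, Cct8 has 1 and Tcp1 none. Of the other members Cct3 has 3, Cct5 and Cct6a have 2 each, and Cct2, Cct4, Hspd1 and Hspe1 have none.

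The deposited signals had array medians of 27.6 to 32.9 (group A), 19.3 to 30.9 (group B), 20.2 to 27 (group C) and 34.3 to 38.5 (group D), so their log2 values were given a common distribution by quantile normalization before any comparison. All values below are these normalized log2 signals, on which a step of 1 is a 2-fold step. The number of arrays limits the precision, and an exact permutation test of 3 arrays against 3 cannot go below p = 0.1. Of the marker lists, 6 of 6 T cell genes and 5 of 5 lymph node stroma genes were above background in all 12 arrays, as were both measured B cell genes of a list of 5, and 0 of 5 pancreas genes were. Group D replicate 3 stood apart from its own group, with a mean correlation across probe sets of 0.884 to group A, 0.931 to group B, 0.930 to group C and 0.897 to the remaining pair of group D.

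In all, 13 of the 31042 probe sets tested carried the 10 symbols, 1 per gene except for Cct5, Cct6a and Cct8, which had 2 each. All 13 were above the background of the array in all 12 arrays, and no probe set was shared with another symbol. Where a gene had 2, the brighter one stood for it in counts of genes. The rat annotation also lists 47 pseudogenes named after the members, 20 of them after Hspd1 and 14 after Cct6a, and a share of the signal from such near-identical copies remains uncertain.

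CCT and Hspd1 signals were lower in group A than in group D, by 2- to 5-fold for Hspd1 and for the brighter probe sets of 7 subunits, while Cct7 and Hspe1 differed by less than 1.4-fold. In 8 of the 10 genes all 3 arrays of group A lay below all 3 of group D, and the share of all genes that did so was not counted. The same 8 were below an adjusted p of 0.05 in limma, where by the adjusted p alone 12.0% of all genes were lower and 16.0% higher. The choice of the genes on this contrast fixed both counts, and nothing is read from them. The median difference of the 10 genes was -1.43 on the log2 scale, with a range of -2.29 to -0.18, against a median of 0.15 over all genes. In an RNA sample of a whole node, fewer cells of a type and less RNA per cell cannot be told apart.

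**Figure D1:**
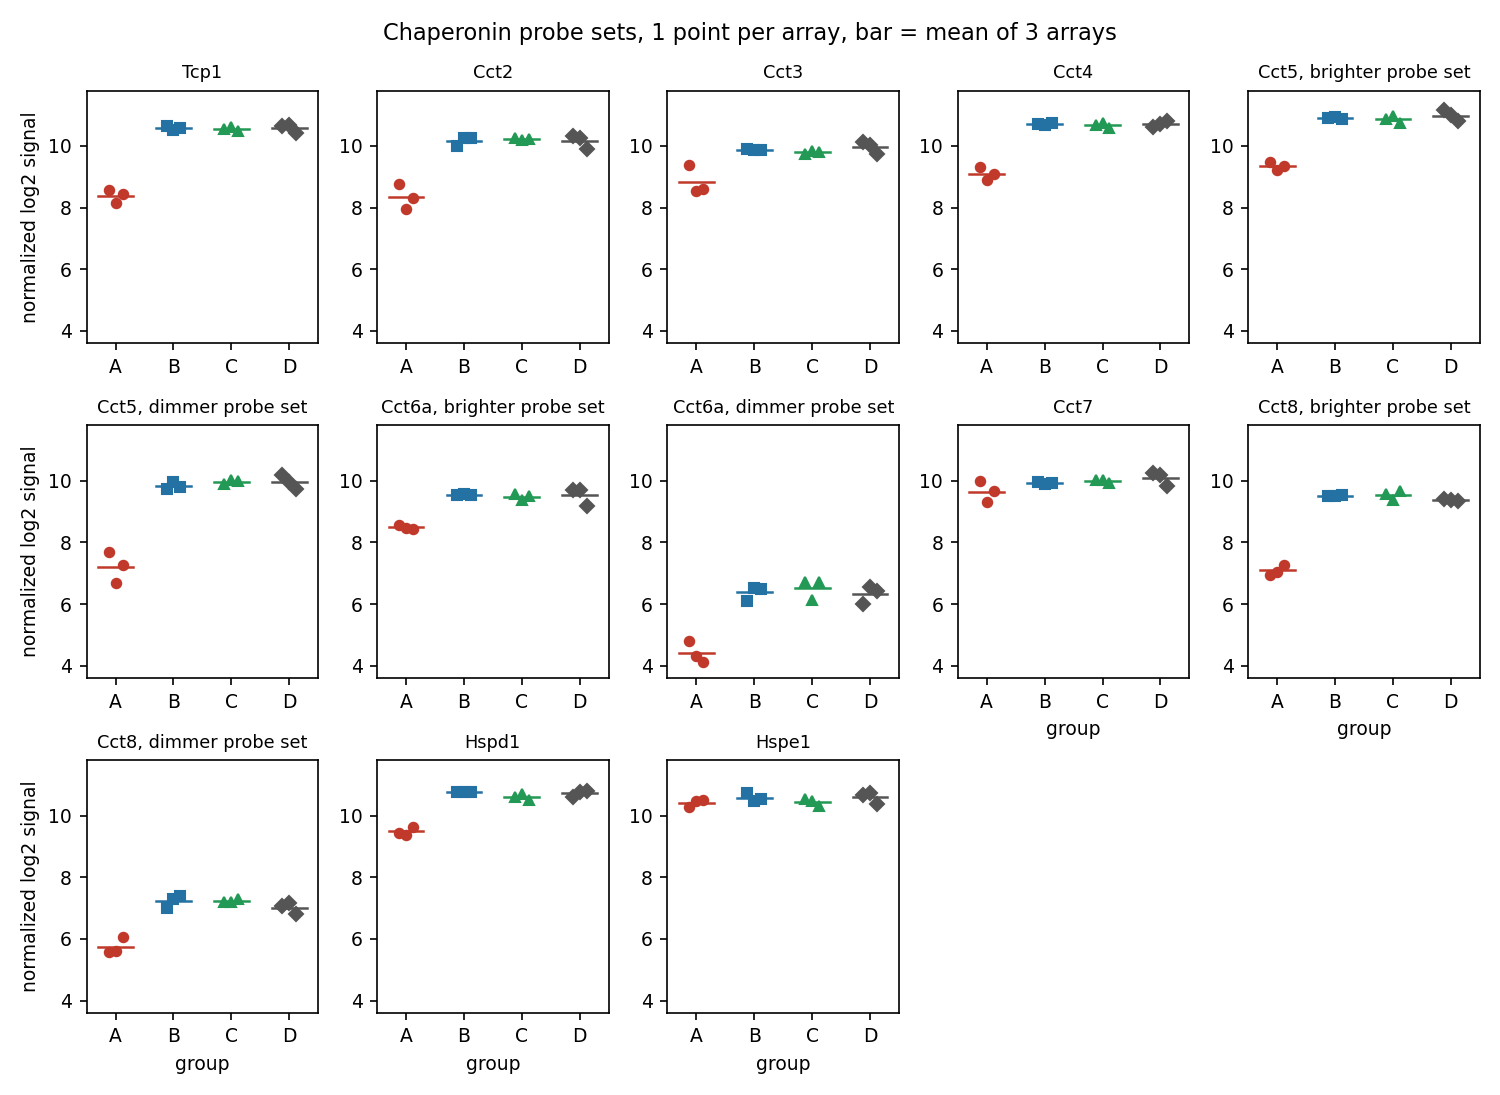
Normalized log2 signal (y axis, the same range in each panel) of the 13 chaperonin probe sets in groups A, B, C and D (x axis), with 1 point per array and a bar at the mean of 3 arrays. Group A lies below the other groups in every panel except those of Cct7 and Hspe1, where its arrays overlap those of group D.

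Tcp1, the alpha subunit and the first of the family to be described, had log2 signals of 8.58, 8.14 and 8.43 in group A, against 10.64, 10.66 and 10.43 in group D. The arrays of the gavage groups stood with group D, at 10.50 to 10.64 in group B and 10.49 to 10.61 in group C. The difference of group A from group D was -2.20 (SE 0.12, n = 3 arrays per group), a signal 4.58-fold lower, and 0.703% of the genes had a lower one.

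Cct8, the theta subunit, was the member with the lowest value in that contrast when each gene was read on its brighter probe set. Its brighter probe set gave 6.96, 7.04 and 7.28 in group A, against 9.42, 9.39 and 9.33 in group D, a difference of -2.29 (SE 0.11) or 4.88-fold lower. The SD of the 3 arrays was 0.17 in group A and 0.05 in group D. Ranked from the lowest, Cct8 was gene 85 and Tcp1 gene 101 of 14217, a description since this contrast chose the genes. The order among the members turned with other choices. By the mean of all probe sets of a gene the difference was -2.20 for Tcp1, -2.19 for Cct5, -1.82 for Cct2 and -1.77 for Cct8, and without group A replicate 1 it was -2.30 for Tcp1 and -2.22 for Cct8 on the brighter probe sets.

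Cct2, the beta subunit, had 8.77, 7.96 and 8.31 in group A, against 10.31, 10.26 and 9.91 in group D, and differed by -1.82 (SE 0.18). Its arrays in group A spread wider (SD 0.41) than those of group B (SD 0.15) or group C (SD 0.019), but none overlapped group D. Cct4, the delta subunit, which is mutated in the mutilated foot rat with its sensory neuropathy, had 9.31, 8.90 and 9.08 in group A, against 10.63, 10.71 and 10.82 in group D. Its difference of -1.62 (SE 0.11) was close to that of Cct5, the epsilon subunit, at -1.64 (SE 0.11) on the brighter probe set, where group A had 9.49, 9.21 and 9.33 and group D 11.15, 11.00 and 10.80.

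Cct3 and Cct6a, the gamma and zeta subunits, were lower by about 2-fold. Cct3 had 9.38, 8.54 and 8.59 in group A, against 10.12, 10.05 and 9.72 in group D, a difference of -1.13 (SE 0.19). Group A replicate 1 was the nearest to group D for this gene, and without it the difference was -1.40. The brighter probe set of Cct6a had 8.57, 8.45 and 8.44 in group A, against 9.71, 9.71 and 9.19 in group D, a difference of -1.05 (SE 0.13) in which the low array of group D was replicate 3.

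Cct7, the eta subunit, had the smallest difference in the complex and was read on 1 probe set. It had 9.99, 9.30 and 9.67 in group A, against 10.26, 10.19 and 9.83 in group D, and the groups overlapped because group A replicate 1 lay above group D replicate 3. The difference was -0.44 (SE 0.16), or 1.36-fold, and 23.2% of all genes were lower. Leaving out group D replicate 3 gave -0.57 and leaving out group A replicate 1 gave -0.61. The part of the probe set in the small size of this difference was not tested.

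The 2 components of the mitochondrial chaperonin had unlike values. Hspd1 had 9.44, 9.37 and 9.64 in group A, against 10.59, 10.78 and 10.80 in group D, a difference of -1.24 (SE 0.10) or 2.36-fold lower, with no overlap. Hspe1, its lid, had 10.27, 10.46 and 10.50 in group A, against 10.68, 10.73 and 10.37 in group D. Its difference of -0.18 (SE 0.12) left the groups overlapping, and 33.2% of all genes were lower. The heat shock element printed above lies between the starts that the promoter table gives for both genes.

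**Figure D2:**
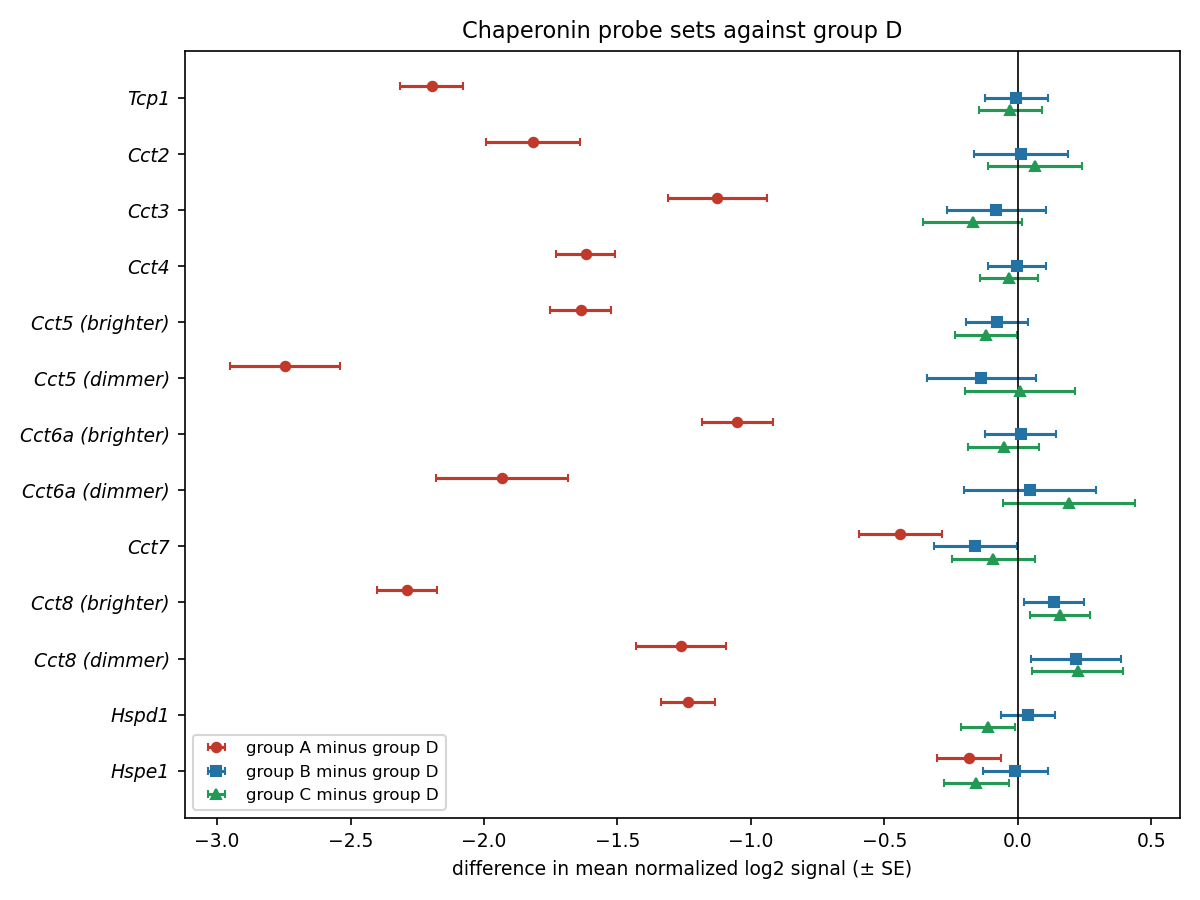
Difference in mean normalized log2 signal (x axis) of groups A, B and C from group D for each chaperonin probe set (rows), with bars of ± 1 SE from the fit of all 12 arrays. For group A the points run from -2.75 to -0.18, while for groups B and C all lie between -0.17 and 0.22.

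Cct5, Cct6a and Cct8 could be read on separate probe sets, and in each gene both were lower in group A, but by different amounts. The dimmer probe set of Cct5 had 7.70, 6.67 and 7.27 in group A, against 10.19, 9.97 and 9.73 in group D, so its difference of -2.75 (SE 0.21) was the largest of the 13 and exceeded the -1.64 of the brighter one. The dimmer probe set of Cct6a had 4.79, 4.30 and 4.11 in group A, against 6.01, 6.54 and 6.44 in group D, a difference of -1.93 (SE 0.25) against -1.05 for the brighter one. In Cct8 the order was turned. The dimmer probe set had 5.58, 5.60 and 6.06 in group A, against 7.05, 7.16 and 6.81 in group D, and its difference of -1.26 (SE 0.17) was smaller than the -2.29 of the brighter one.

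The gap between the probe sets of a gene, the dimmer minus the brighter within 1 array, therefore took another value in group A than elsewhere. For Cct5 it was -2.13 ± 0.38 in group A, -1.08 ± 0.11 in group B, -0.89 ± 0.14 in group C and -1.02 ± 0.05 in group D (SD, n = 3 each). For Cct8 it was -1.34 ± 0.11 in group A, -2.29 ± 0.20 in group B, -2.30 ± 0.12 in group C and -2.37 ± 0.15 in group D. For Cct6a it was -4.09 ± 0.28 in group A, -3.17 ± 0.22 in group B, -2.96 ± 0.26 in group C and -3.21 ± 0.47 in group D. In each of the 3 genes the arrays of group A did not overlap those of any other group. The gap of Cct8 was narrower in group A and those of Cct5 and Cct6a were wider, so the size of the difference for these genes depends on which probe set is read.

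**Figure D3:**
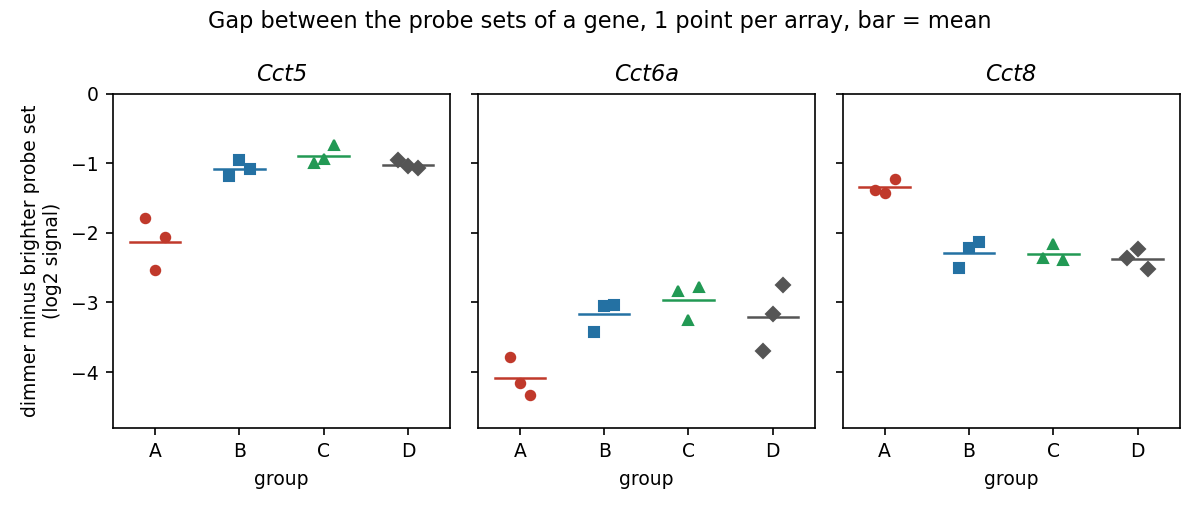
Gap in log2 signal between the dimmer and the brighter probe set (y axis) of Cct5, Cct6a and Cct8 in groups A, B, C and D (x axis), with 1 point per array and a bar at the mean. Group A lies lowest for Cct5 and Cct6a, at means of -2.13 and -4.09, and highest for Cct8, at -1.34.

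The arrays also carry probe sets for the 3′ and 5′ ends of reference transcripts, whose ratio rises when RNA is shorter or less fully copied. The ratio for hexokinase was 2.84 to 4.96 (group A), 1.62 to 3.24 (group B), 1.82 to 2.62 (group C) and 1.84 to 2.53 (group D). For GAPDH it was 1.21 to 1.53 (group A), 1.10 to 1.12 (group B), 1.10 to 1.28 (group C) and 1.06 to 1.22 (group D). For beta-actin the groups overlapped throughout, at 1.37 to 1.79 (group A), 1.44 to 1.79 (group B), 1.60 to 1.74 (group C) and 1.30 to 1.91 (group D). The array with the highest hexokinase and GAPDH ratios, group A replicate 2, was also the one with the lowest mean of the 10 genes. The part of these ratios in the low chaperonin signals was not tested.

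**Figure D4:**
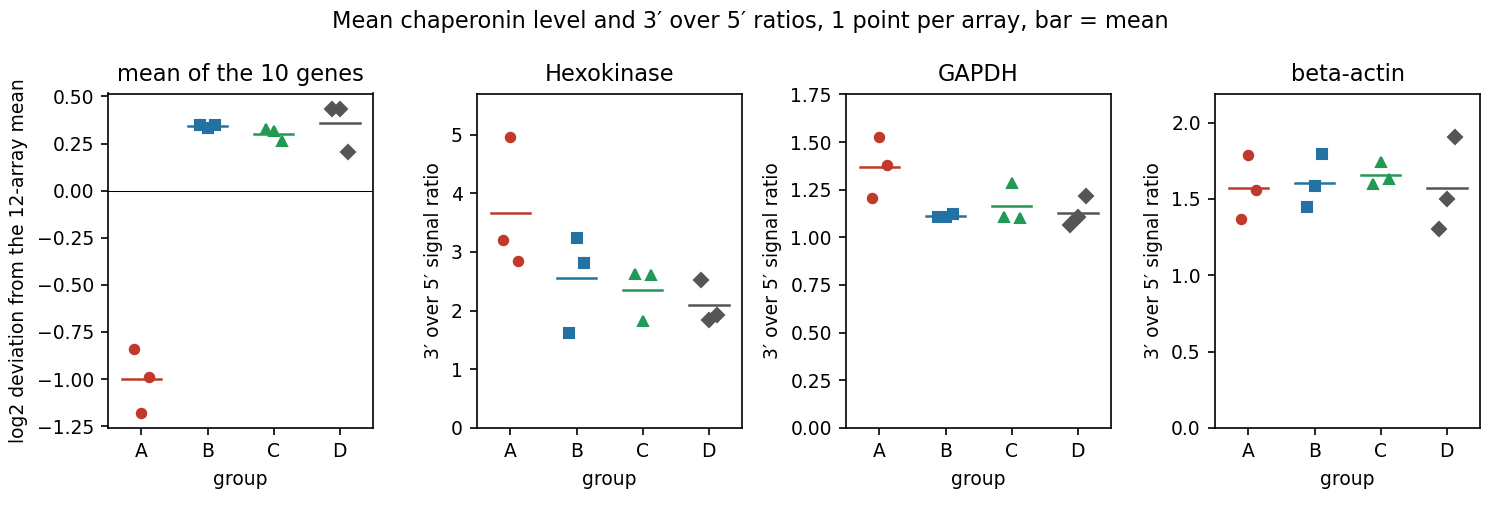
Mean of the 10 genes, each centred on its own mean over 12 arrays (left, log2), and the ratio of 3′ to 5′ signal for hexokinase, GAPDH and beta-actin (y axes from 0) in groups A, B, C and D, with 1 point per array and a bar at the mean. Hexokinase ran from 2.84 to 4.96 in group A and from 1.62 to 3.24 in group B, and beta-actin overlapped between all groups.

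Centred on their own means over the 12 arrays, the 10 genes averaged -0.84, -1.18 and -0.99 in the arrays of group A. They averaged 0.35, 0.33 and 0.35 in those of group B, 0.33, 0.32 and 0.26 with gavage alone (group C), and 0.43, 0.43 and 0.20 in group D. The third array of group D had the lowest mean outside group A. The genes also spread more among themselves in group A, with an SD over the 10 centred values of 0.54 to 0.60 within an array, against 0.18 to 0.21 (group B), 0.21 to 0.28 (group C) and 0.12 to 0.24 (group D). Cct5 tracked the mean profile most closely, with a root mean square distance of 0.12 over the 12 arrays, and Hspe1 least, at 0.54.

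Groups B and C, both gavaged, did not take part in the choice of the genes and were tested. Both tests share the 3 arrays of group D with the contrast that chose the genes. Against group D, 0 of the 10 genes passed an adjusted p under 0.05 in limma in group B, where 0.0211% of all genes did in either direction. No member reached an unadjusted p under 0.05 either, against 17.0% of all genes. The median difference was -0.0039 with a range of -0.16 to 0.14, against -0.11 over all genes, and the smallest adjusted p was 0.585, that of Cct8. Its brighter probe set had 9.51, 9.50 and 9.54 in group B, against 9.42, 9.39 and 9.33 in group D, and all arrays of group B lay above those of group D. The difference of 0.14 had a 95% interval of -0.11 to 0.38.

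The intervals set the size of change that these arrays could have missed in group B. For Tcp1 the difference was -0.01 with an interval of -0.26 to 0.25, for Cct4 it was -0.0022 with -0.24 to 0.24, and for Hspd1 it was 0.04 with -0.18 to 0.26. The widest interval among the brighter probe sets was that of Cct3, from -0.48 to 0.32. A p above the threshold does not show that the levels were equal, but for these 4 genes the interval ends short of the difference measured in group A. For Cct7, at -0.50 to 0.18, and for Hspe1, at -0.27 to 0.25, the interval contains the difference of group A.

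In group C, which had no CLA before birth, 0 of the 10 genes passed against group D, where 0.0422% of all genes did, and 0 reached an unadjusted p under 0.05, against 19.6% of all genes. The median difference was -0.07 with a range of -0.17 to 0.16, against -0.12 over all genes. The smallest adjusted p was 0.493, again for Cct8, whose brighter probe set had 9.56, 9.37 and 9.68 in group C and overlapped group D. The interval of its difference of 0.16 ran from -0.09 to 0.40. On the dimmer probe set all arrays of group C, at 7.20, 7.20 and 7.29, lay above those of group D, at 7.05, 7.16 and 6.81, but the 0.22 between them stayed above the threshold (adjusted p = 0.520).

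The scaling of the arrays and 1 array of group D bear on these counts. With the signals as deposited the median of the 10 genes in group B was -0.76, against -0.55 over all probe sets, and 9 of the 10 reached an unadjusted p under 0.05 while 0 passed the adjusted one in limma. On that scale 8 of the 10 genes were called lower in group C, at a median of -0.87, where the median of all probe sets was itself -0.70. The share of all genes called on that scale was not counted, so these counts are not read as a result about the chaperonins. Without group D replicate 3 the smallest adjusted p was 0.227 in group B and 0.0985 in group C, where 2 genes then reached an unadjusted p under 0.05, and 0 were called in either group.

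Groups B and C differ in whether the dam ate CLA in gestation. Between them 0 of the 10 genes passed an adjusted p under 0.05, 0% of all genes did, and 0 of the 10 reached an unadjusted p under 0.05, against 3.90% of all genes. The median difference was 0.04. Hspd1 had 10.75, 10.77 and 10.76 in group B, against 10.61, 10.70 and 10.52 in group C, without overlap, and its difference of 0.15 had an interval of -0.07 to 0.37 (adjusted p = 1). Cct3 was likewise higher in all arrays of group B, at 9.90, 9.88 and 9.87, than in those of group C, at 9.74, 9.83 and 9.82, with a difference of 0.09 and an interval of -0.31 to 0.49 (adjusted p = 1).

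Group A, set against the gavage groups, was lower in 8 of the 10 genes by the adjusted p under 0.05, with 16.9% of all genes lower by that rule. The median difference was -1.37, against 0.32 over all genes. This contrast shares the arrays of group A with the one that chose the genes, so it is given as a description. The difference was -2.43 for Cct8, -2.18 for Tcp1 and -1.20 for Hspd1. For Cct7 it was -0.32 and for Hspe1 -0.10, and in these 2 genes the sign depended on the scaling: with the signals as deposited it was 0.39 for Cct7 and 0.61 for Hspe1. On that scale 5 of the 10 genes were below the adjusted p of 0.05, and Cct3 (-0.34), Cct6a (-0.41) and Hspd1 (-0.48) no longer were. There the median of all probe sets was itself 0.49. The share of all genes called on that scale was not counted, and nothing is read from this count.

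By likeness of pattern over the 12 arrays, the 8 nearest genes outside the family were Psmd5, Rtraf, Ift20, Cfdp1, Pdp1, Hat1, Cand1 and Ttc27. They were taken from 13931 probe sets above background in all arrays, by the smallest root mean square distance from the mean profile of the members. That distance was 0.073 for Psmd5, a chaperone of proteasome assembly, 0.092 for Hat1, a histone acetyltransferase, and 0.096 for Cand1, which exchanges the substrate receptors of cullin ligases. Their differences of group A from group D lay between -1.53 (Ttc27) and -1.16 (Cand1), inside the range of the members. The profile that they resemble was set by group A, so this likeness is a description.

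Genes that work beside CCT were read from lists written with earlier results of these arrays known, in the same fit of all comparisons. Their adjusted p-values and counts in group A are therefore a description, not an independent test. Beside their counts in group A stand the 12.0% of all genes that were lower and the 16.0% that were higher. Prefoldin, the jawed complex that hands actin and tubulin chains to CCT, had 5 of 6 subunits measured, and 0 passed the adjusted p under 0.05 in group A, none at an unadjusted p under 0.05. Pfdn2 had 8.55, 8.65 and 8.48 in group A, against 8.69, 8.48 and 7.76 in group D. The differences ran from -0.06 for Pfdn5 to 0.25 for Pfdn2, with 0.02 for Pfdn1, 0.22 for Pfdn4 and 0.18 for Pfdn6. All 5 overlapped between group A and group D. Without group D replicate 3 the differences were -0.02 for Pfdn2, 0.10 for Pfdn4, 0.08 for Pfdn6, -0.07 for Pfdn1 and -0.09 for Pfdn5, so the positive values of Pfdn2 and Pfdn1 turned negative.

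Of 4 cofactors that bind CCT and modulate its folding of actin, tubulin or G protein beta subunits, 2 fell and 0 rose in group A, both of them phosducin-like proteins. Pdcl, which serves the folding of G protein beta subunits, had 5.51, 5.74 and 5.74 in group A, against 6.78, 7.08 and 7.17 in group D, a difference of -1.35 (SE 0.14, adjusted p = 6.5e-05 in limma). Pdcl3 had 7.80, 7.29 and 7.46 in group A, against 8.57, 8.54 and 8.33 in group D, a difference of -0.96 (adjusted p = 0.00046 in limma), and its other probe sets gave -0.77 and -1.41, the last without passing. Txndc9 (-0.79, adjusted p = 0.095) and Pdcd5 (-0.24, adjusted p = 0.161) did not pass.

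The tubulin folding cofactors, which take tubulin chains over from CCT and join them into dimers, were split. Of 5 genes 1 fell and 1 rose in group A. Tbce had 7.05, 7.11 and 6.99 in group A, against 7.68, 7.70 and 8.71 in group D, a difference of -0.98 (adjusted p = 0.0061), and group D replicate 3 stood 1 log2 step above its group with the gavaged arrays. Without that array the difference was -0.64 and still passed. Tbcc had 7.29, 7.51 and 7.09 in group A, against 6.24, 6.57 and 5.45 in group D, a difference of 1.21 (adjusted p = 0.0042). Tbca (-0.05), Tbcb (0.09) and Tbcd (0.00098) did not pass.

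The clients of CCT showed no common fall. Of 21 substrates listed 17 were measured, and in group A 1 was lower and 5 were higher, with a median difference of 0.32 against 0.15 over all genes. The lower one was Gnb1, a G protein beta subunit, at -0.49 (adjusted p = 0.010), but its other 2 probe sets gave 0.13 and 0.39 without passing. The higher ones were Tubg1, Gnb2, Fzr1, Plk1 and Vhl, among which Plk1, a mitotic kinase, had 7.75, 7.80 and 7.78 in group A, against 7.10, 6.93 and 6.09 in group D. Tubb5, a main beta-tubulin, had 11.02, 11.11 and 11.00 in group A, against 10.82, 10.84 and 10.45 in group D, a difference of 0.34 that did not pass (adjusted p = 0.074). Actb and Tuba1b were not analysed here, and the cytoplasmic actin Actg1 differed by 0.01, while its other probe set gave 1.04 without passing (adjusted p = 0.082). Without group D replicate 3 the higher ones were 3, and with the signals as deposited 0 of the 17 passed, so these calls depend on that array and on the scaling.

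The genes related to CCT in sequence but outside the complex, Mkks and Bbs12, help to assemble the BBSome of the cilium. Of 4 listed 2 were measured and 0 passed in group A on the brightest probe set, none at an unadjusted p under 0.05, with differences of 0.17 for Mkks and -0.97 for Bbs12. The other probe set of Mkks gave -0.81 (adjusted p = 0.0037), so the probe sets of this gene disagreed. Bbs12 had 0.23 in group B replicate 1 and was below background there.

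In the mitochondrion, 4 of 12 chaperones and proteases fell and 1 rose in group A. Hspa9, the matrix HSP70 that pulls chains through the import pore and passes them to Hspd1, had 7.36, 7.59 and 7.74 in group A, against 9.06, 9.13 and 8.86 in group D, a difference of -1.45 (SE 0.12, adjusted p = 9e-06). Of its 3 other probe sets 2 passed as well, at -2.33 and -2.10, and the remaining one gave -0.82 without passing. That fall lay in the range of the CCT subunits, while Trap1, the matrix member of the HSP90 family, differed by -0.02.

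Clpx, the unfoldase of the Clp protease, fell by 0.90 (adjusted p = 0.0019), and its partner Clpp, the peptidase, rose by 0.49 (adjusted p = 0.027). Yme1l1, a protease of the inner membrane, had 7.62, 7.97 and 7.82 in group A, against 8.59, 8.40 and 9.67 in group D, a difference of -1.08 (adjusted p = 0.0098). Group D replicate 3 was its highest array there, and without it the difference was -0.69 and still passed. The other probe sets of Yme1l1 disagreed, at -1.40 (adjusted p = 0.0017), -0.43 and 0.09, the last 2 without passing. Hscb, a cochaperone of iron-sulfur cluster assembly, fell by 0.45 and lay just inside the threshold (adjusted p = 0.0499). Grpel1 (-0.19), Grpel2 (-0.06), Dnaja3 (-0.49), Lonp1 (-0.11), Afg3l2 (0.01) and Spg7 (0.46) did not pass, although Dnaja3 did without group D replicate 3, at -0.66. With the signals as deposited 3 of the 12 fell and 0 rose, and the share of all genes on that scale was not counted.

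Mitochondrial import genes were mixed, with 2 of 8 lower and 4 higher in group A. Among 8 cytosolic chaperones 4 fell and 2 rose, beside 12.0% of all genes lower and 16.0% higher. Of the 61 measured genes of the 8 pathway lists, 0 passed in limma in either gavage group when set against group D, with 9 (group B) and 14 (group C) at an unadjusted p under 0.05. Of all genes 0.0211% (group B) and 0.0422% (group C) passed the adjusted p, and 17.0% (group B) and 19.6% (group C) were under the unadjusted one. With the signals as deposited 0 genes of these lists were called higher in group A, while the lower ones were 2 CCT cofactors, 1 tubulin folding cofactor, 3 mitochondrial chaperones and proteases, 1 import gene and 3 cytosolic chaperones. The share of all genes called on that scale was not counted.

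**Figure D5:**
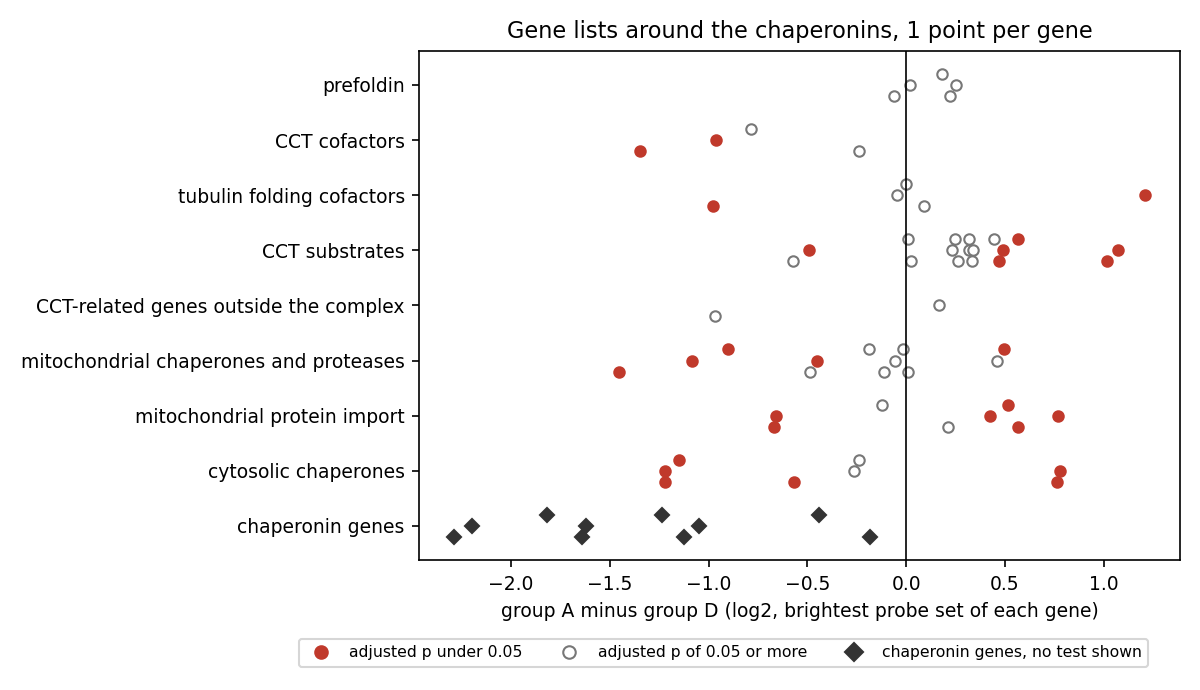
Difference of group A from group D in normalized log2 signal (x axis) for each gene of 8 pathway lists and for the 10 chaperonin genes (rows), on the brightest probe set of each gene. Filled circles passed an adjusted p under 0.05, open circles did not, and diamonds are the chaperonin genes, all of which lie below 0, as do all 4 CCT cofactors.

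Markers of other cells differed from group D too, and the counts below are for group A unless another group is named. Beside the counts in group A stand 12.0% of all genes lower and 16.0% higher. Some differed in groups A, B and C alike. The median smooth muscle difference from group D was -2.95 (group A), -3.22 (group B) and -3.15 (group C). For mesothelium it was -1.22 (group A), -1.61 (group B) and -1.73 (group C). Neutrophil genes were higher in 4 of 4 measured genes, and their mean log2 level was 5.85 to 6.34 (group A), at most 4.34 (group B), 3.92 to 5.55 (group C) and 3.50 to 3.63 (group D). Only 2 of these 4 genes were above background in all 12 arrays, and Np4 was so in 5 arrays. Smooth muscle genes were lower in 3 of 5, with mean levels of 6.77 to 7.00 (group A), 5.88 to 6.14 (group B), 5.62 to 6.94 (group C) and 6.87 to 10.01 (group D). Of 8 proliferation genes 3 were lower and 1 higher, with mean levels of 7.66 to 7.93 (group A) against 7.49 to 8.15 (group D). The T cell list had 0 of 6 genes called by limma, 2 being higher at an unadjusted p under 0.05, with levels of 10.03 to 10.36 (group A) against 9.87 to 10.06 (group D). In groups B and C the smooth muscle level was also below that of 2 arrays of group D. There 0 of 5 smooth muscle genes were called by limma, and 5 were at an unadjusted p under 0.05. Mesothelium genes were lower in 2 of 4 in group A, and 1 of the 4 was called lower in each of groups B and C. In group A 1 of 2 B cell genes, 1 of 5 gut epithelium genes and 1 of 5 adipocyte genes were lower, 1 of 4 erythroid genes was higher, and the 5 lymph node stroma genes had 1 lower and 1 higher. Of 5 enteric neuron and 5 pancreas genes 0 were called by limma, with 2 and 0 at an unadjusted p under 0.05. The part of these cells in the low chaperonin signals was not tested.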

How the data were processed

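RNA of 12 MLN was measured on 12 arrays. The authors deposited MAS5 signal intensities on a linear scale, with no scaling between arrays stated in the sources used here. The 30 zeros in the 31099 probe sets took the smallest positive value. The log2 values were quantile normalized, and values under an intensity of 1 were raised to 1. After removal of 57 controls, 31042 probe sets entered limma (version 3.58.1, under R 4.3.3), which fitted a mean for each group and a variance trend, with two-sided tests and Benjamini-Hochberg adjustment over all probe sets. Symbols came from the platform annotation and were updated by gene number against GRCr8, and the brightest probe set with 1 symbol stood for a gene. The array background was the 95th percentile of 27 spike probe sets. The fit was tested on simulated data.

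Members, lists and settings were chosen with earlier results of these data known. Named are all members, the genes of 5 pathway lists, 3 substrates and the 8 genes of nearest profile, other genes being chosen after their values were seen. The alternatives were other scalings, floors, filters, variance models, probe set rules, a replicate term and leaving out each array. List counts under other scalings and without group D replicate 3 were added after seeing the data.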

Additional observations from a re-analysis of the deposited data

How the results depend on the processing

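Over 21 alternatives no call changed its direction. The median of the 10 genes in group A against group D stayed between -1.55 and -1.35 when each array was left out, and that against groups B and C between -1.44 and -1.31. The comparison with groups B and C moved to -0.65 with the signals as deposited, where the median of all probe sets was 0.49, to -1.06 with arrays centred on their 75th percentile, and to -1.57 with the mean of all probe sets of a gene. In group C against group D 8 genes were called with the signals as deposited and 0 under the other settings. The share of all genes called with the signals as deposited was not counted, and the cause was not tested. In groups B and C against group D and between groups B and C, leaving out an array gave 0 to 0 genes called.

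The replicate numbers did not pair the arrays, as the 18 correlations of same-numbered arrays lay between -0.02 and 0.08. With the replicate number as a block the medians stayed at -1.43 and -1.37, with 0 genes called in the other comparisons. Group A was also set against group D by a test of each probe set alone, without limma's shared variance. There 8 genes passed the methods' unadjusted threshold and fold of 2. After Benjamini-Hochberg adjustment 5 passed, with Cct2, Cct3 and Cct6a lost. The share of all genes passing these rules was not counted, and nothing is read from the counts. In limma Cct7 passed in group A against group D with the dimmest 40% of probe sets left out, without group A replicate 1 and without group D replicate 3. Nothing is read from these calls either, since this contrast chose the genes. The 3 pups per group limit the precision in groups B and C, and the intervals given hold for the quantile normalized signals only.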
